A study of Mus musculus with 6 samples.

Results

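Interleukin-1 (IL-1) family ligands, binding proteins and receptors were examined in sorted blood neutrophils of mice with and without ligature-induced periodontitis. The set was chosen by gene name and held the cytokines Il1a, Il1b and Il18, the secreted inhibitors Il1rn and Il18bp, and the receptor chains Il1r1, Il1r2, Il1rap and Il18rap, 9 of the 29097 genes in the deposited table. All mice were 8-week-old male C57BL/6 wild-type animals, in which silk ligatures around the second molars were either kept for 14 d (LIP, 3 libraries) or not placed (Ctrl, 3 libraries). CD45+CD11b+Ly6G+ cells were sorted from blood after red cell lysis, cells of 5 mice were pooled for each library, and RNA was amplified with the Smart-seq2 method, which makes full-length cDNA from few cells and carries no molecular identifiers. The comparison asks which transcripts of circulating neutrophils differ while a local inflammation of the gums persists.

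IL-1α and IL-1β are agonists that bind the signalling receptor IL-1R1, which then recruits the accessory chain encoded by Il1rap and passes the signal on through MyD88 and NF-κB. The pathway is held in check outside the cell by the receptor antagonist encoded by Il1rn, which occupies IL-1R1 without signalling, and by IL-1R2, a decoy that binds IL-1 but lacks the signalling domain and is known to be abundant on neutrophils. IL-18 is a related cytokine that, like IL-1β, is made as a precursor and cut by caspase-1, binds a receptor of its own with the accessory chain encoded by Il18rap, and is neutralised by the soluble IL-18 binding protein.

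Promoter sequences of all 9 members were found among the RefSeq promoters of build GRCm38.p6, each running from 250 bases before to 50 bases after an annotated start. Those of Il1a, Il1b, Il1rn and Il1r2 are printed 5′ to 3′ on the gene's own strand because the ligand, antagonist and decoy values below turn on these genes. Capitals mark TATAAA, the AP-1 letters TGANTCA and the STAT letters TTCNNNGAA. The Il1a promoter lies at chr2:129309923-129310222 on the minus strand, that of Il1b at chr2:129371090-129371389 on the minus strand, the first of 3 for Il1rn at chr2:24336610-24336909 on the plus strand and that of Il1r2 at chr1:40085843-40086142 on the plus strand.
Il1a: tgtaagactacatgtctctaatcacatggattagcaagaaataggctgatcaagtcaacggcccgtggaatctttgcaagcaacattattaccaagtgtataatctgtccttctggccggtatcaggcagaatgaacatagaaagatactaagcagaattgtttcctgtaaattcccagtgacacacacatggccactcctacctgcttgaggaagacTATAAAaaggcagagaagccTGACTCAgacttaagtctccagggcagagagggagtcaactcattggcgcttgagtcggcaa
Il1b: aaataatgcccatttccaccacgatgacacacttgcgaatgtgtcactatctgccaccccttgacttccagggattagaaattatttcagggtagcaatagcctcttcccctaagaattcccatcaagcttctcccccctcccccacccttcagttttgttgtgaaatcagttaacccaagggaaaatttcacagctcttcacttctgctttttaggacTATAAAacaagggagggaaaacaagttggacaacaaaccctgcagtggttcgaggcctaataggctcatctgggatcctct
Il1rn: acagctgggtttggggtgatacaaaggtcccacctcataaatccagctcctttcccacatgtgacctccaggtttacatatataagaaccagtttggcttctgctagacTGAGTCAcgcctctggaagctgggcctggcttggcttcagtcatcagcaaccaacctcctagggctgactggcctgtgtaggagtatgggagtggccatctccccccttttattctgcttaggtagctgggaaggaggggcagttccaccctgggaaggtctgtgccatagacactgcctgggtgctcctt
Il1r2: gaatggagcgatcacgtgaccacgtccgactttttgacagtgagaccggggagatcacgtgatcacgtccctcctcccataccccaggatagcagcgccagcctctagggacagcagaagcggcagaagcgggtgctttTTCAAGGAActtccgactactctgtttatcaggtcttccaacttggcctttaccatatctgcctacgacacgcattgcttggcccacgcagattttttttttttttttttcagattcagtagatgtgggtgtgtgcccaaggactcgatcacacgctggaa

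Both agonist genes, which lie close together on chromosome 2, carried TATAAA on their own strand close before the start, with its first base at −32 in Il1a and at −31 in Il1b. The letters also occurred on the opposite strand in Il18 at −175 and in the last of the Il1rn promoters at 15 bases after the start. Read on both strands, TATAAA was thus present in 4 of the 12 member promoters and in 13.6% of all 32851 promoters of this length. TGANTCA was found in Il1a at −12 and in the printed Il1rn promoter at −141, against 7.81% of all promoters. TTCNNNGAA was found in Il1r2 at −111, against 8.3%. The C/EBP letters TTGCNNAA, held by 10.8% of promoters, were present in Il18bp at −49 and in an Il1r1 promoter at −133. These matches are descriptions of the letters, and a match in this window does not show that a factor binds there.

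Total counts lay between 52186555 and 57262379 per library. Values are given as FPKM, fragments counted for a gene divided by its exon length and by the library total, which can be set side by side between genes, and fold changes come from edgeR's quasi-likelihood test on counts with TMM scaling, with Benjamini-Hochberg adjustment over the 10440 genes that reached a mean of 1 FPKM across the libraries. All 21 neutrophil marker genes were detected and all rose in LIP, from 1.98% to 2.12% of counts in Ctrl to 5.72% to 6.02% in LIP, including S100a9, the most abundant of them, and Ly6g, which encodes the sorted surface protein. All 8 tested erythroid markers, led by Hba-a1, fell, from 14.7% to 15.1% of counts to 1.56% to 1.62%, as did the 12 B cell markers, led by Cd79a, from 0.561% to 0.591% to 0.0687% to 0.0775%, and the 13 tested T cell markers, led by Lck, from 0.0882% to 0.0955% to 0.0141% to 0.0165%. Of 15 tested monocyte and dendritic cell markers, led by Ctss, 12 rose and 1 fell, with 0.273% to 0.298% of counts in Ctrl and 0.317% to 0.334% in LIP, and the 7 platelet markers, led by Ppbp, rose, from 0.102% to 0.120% to 0.202% to 0.246%. NK cell markers, led by Gzma, took 0.0432% to 0.0492% of counts in Ctrl and 0.0432% to 0.0453% in LIP, with 3 of 9 higher, and of 6 tested eosinophil and basophil markers, led by Siglecf, 1 rose and 1 fell. Of the listed markers, 10 of 11 erythroid ones and 8 of 9 eosinophil and basophil ones were among the deposited genes. Every deposited gene had a count in some library, so none of these markers could be at 0 in all. The part of these differences in the values below was not tested beyond a refit scaled on the neutrophil markers, and in such pooled libraries more cells that carry a transcript and more transcript per cell cannot be told apart.

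With TMM scaling, Il1b, Il1rn, Il1r2, Il1rap, Il18bp and Il18rap rose in LIP, none of the 9 members fell, Il1a and Il18 did not pass the test and Il1r1 was too low to be tested, whereas with scaling on neutrophil markers none of the 8 tested members rose and 5 were lower. Among all tested genes 26.5% rose, 27.2% fell and 53.6% changed in either direction with TMM scaling, and 0.556% rose and 88.2% fell with scaling on neutrophil markers, so lower calls were no more frequent among the members than among all genes under the latter. The members' median log2 fold change was 1.57, beside −0.09 over all tested genes. Counts scaled to the TMM library size (CPM) did not overlap between the groups for 7 of the 8 tested members, as for 63.4% of all tested genes. Together the 9 genes took 0.518% to 0.567% of all counts in the Ctrl libraries and 1.46% to 1.58% in the LIP libraries, most of it from Il1b and Il1r2.

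**Figure D1:**
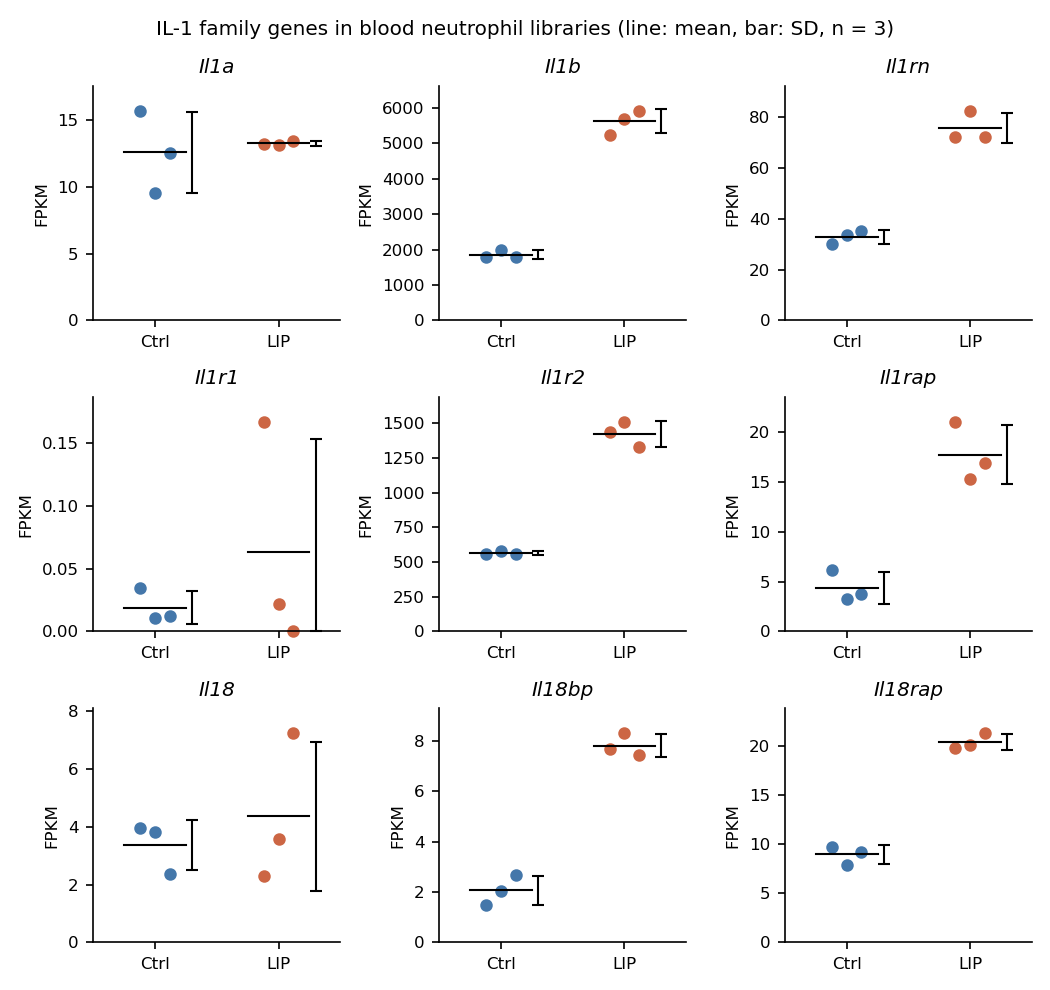
FPKM of each of the 9 genes (vertical axes from 0, a scale for each gene) in the 3 Ctrl and 3 LIP libraries, with the mean as a line and the SD as a bar beside the points, cut at 0. In Il1b, Il1rn, Il1r2, Il1rap, Il18bp and Il18rap every LIP library lies above every Ctrl library, while Il1a, Il1r1 and Il18 overlap, and the FPKM scale takes no account of the share of counts from other cell types.

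Il1b (ENSMUSG00000027398, GRCm38 chr2:129364570-129371139, minus strand), which encodes the IL-1β precursor, was the most abundant member. Its FPKM was 1779, 1999 and 1800 in the Ctrl libraries and 5244, 5692 and 5905 in the LIP libraries. Every LIP library lay far above every Ctrl library, and the gene moved from the 30th to the 11th highest mean FPKM in the table. The log2 fold change was 1.90 (SE 0.08, adjusted p = 5.92e-08, edgeR), a 3.73-fold difference with a 95% interval of 3.33 to 4.19, and Il1b transcripts took 0.384% ± 0.0255 (SD, n = 3) of counts in Ctrl and 1.15% ± 0.0731 in LIP. In this ranking by TMM-scaled change, 246 of the 10440 tested genes had a higher value.

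An antisense gene, Il1bos, lies on the strand opposite Il1b and shares 25 exon bases with it, 1.31% of the merged Il1b exons. Its counts were 0.322% of those of Il1b, and its FPKM was 4.48 ± 0.576 (SD, n = 3) in Ctrl and 10.9 ± 0.794 in LIP, a log2 fold change of 1.59 (adjusted p = 5.78e-05, edgeR). Whether the counting used strand is not given in the sources used here, so reads in the shared bases cannot be assigned, but all Il1bos counts together were small beside those of Il1b.

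Il1a (ENSMUSG00000027399, chr2:129299610-129309972, minus strand), the gene of the other agonist, was far less abundant and did not pass the test. Its FPKM was 15.6, 9.56 and 12.5 in Ctrl and 13.2, 13.1 and 13.4 in LIP, so that the 3 LIP values lay inside the Ctrl range, although in TMM-scaled CPM, at 24.3 ± 5.49 (SD, n = 3) in Ctrl and 31.7 ± 0.433 in LIP, the groups did not overlap. The log2 fold change was 0.38 with a 95% interval of −0.06 to 0.83 (adjusted p = 0.127, edgeR), and without the first Ctrl library it passed the test (0.57, adjusted p = 0.0489), while with scaling on neutrophil markers Il1a was called lower (−1.44). An antisense gene, Gm14023, shares 222 exon bases with Il1a, 11.2% of them, and had 22% as many counts, which leaves the Il1a values uncertain to that extent. Within each library Il1b exceeded Il1a by a geometric mean of 151-fold in FPKM in Ctrl and 424-fold in LIP, and the log2 ratio of Il1a to Il1b was −6.83, −7.71 and −7.17 in Ctrl and −8.64, −8.77 and −8.78 in LIP. The groups did not overlap in this ratio, which no library scaling can alter, and its difference of −1.49 gave p = 0.1 in a two-sided exact permutation test, the smallest that 3 libraries against 3 allow (0.2 after Benjamini-Hochberg adjustment over 6 ratios).

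Il1rn (ENSMUSG00000026981, chr2:24336853-24351494, plus strand), the gene of the receptor antagonist, was a moderately abundant transcript. The Ctrl libraries had 30.0, 33.5 and 35.2 FPKM and the LIP libraries 72.4, 82.3 and 72.3 FPKM, with no overlap. It rose by 1.51 on the log2 scale (SE 0.11, adjusted p = 1.74e-06, edgeR), or 2.84-fold with an interval of 2.41 to 3.36. No other gene of the table overlaps it.

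The antagonist stood lower beside the agonist in every LIP library than in any Ctrl library. The log2 ratio of Il1rn to Il1b was −5.89, −5.90 and −5.68 in Ctrl and −6.18, −6.11 and −6.35 in LIP, so that for 1 FPKM of Il1rn there were 56.6 FPKM of Il1b in Ctrl and 74.2 in LIP. The difference in the log2 ratio was −0.39, and it too reached only the smallest exact permutation p of 0.1 (0.2 adjusted over the 6 ratios). FPKM here divides by the merged exons of all isoforms, 1907 bases for Il1b and 5535 for Il1rn against 1356 and 2554 in the longest annotated transcript, so the level of a ratio moves with the gene model and its difference between groups does not.

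Il1r2 (ENSMUSG00000026073, chr1:40074079-40125231, plus strand), the decoy receptor gene, was the second most abundant member. Its FPKM was 556, 583 and 558 in Ctrl and 1434, 1507 and 1326 in LIP, and the spread within either group was small beside the gap between them. The log2 fold change was 1.64 (SE 0.08, adjusted p = 1.83e-07, edgeR), 3.11-fold with an interval of 2.76 to 3.51, and the gene moved from the 74th to the 41st place by mean FPKM. The start behind its printed RefSeq promoter lies inside the gene span given in the table rather than at its first base. Gm16894 on the opposite strand and Gm37347 on the same strand overlap this span without sharing exon bases, and had 0.287% and 0.613% as many counts, with log2 fold changes of 2.40 (adjusted p = 1.19e-04, edgeR) and 1.53 (adjusted p = 7.65e-04).

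Il1r1 (ENSMUSG00000026072, chr1:40225080-40317257, plus strand), the signalling receptor gene, was hardly detected. It had 13, 4 and 5 counts in the Ctrl libraries and 65, 9 and 0 in the LIP libraries, corresponding to at most 0.166 FPKM, and the 0 allows up to 3 counts. One LIP library therefore held most of the reads and another held none. Gm38070 overlaps Il1r1 on the same strand without sharing exon bases and had 47.9% as many counts. Without the filter on low values the log2 fold change was 2.0 with an SE of 1.82 (adjusted p = 0.470, edgeR), so a difference was not detectable at this depth. After adding 0.5 counts, the log2 ratio of Il1r2 to Il1r1 had a Ctrl mean of 14.9 ± 0.883 (SD, n = 3) and a LIP mean of 16.3 ± 3.42, with overlap (exact permutation p = 0.7), and the difference of 1.40 became −0.39 without the third LIP library.

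Il1rap (ENSMUSG00000022514, chr16:26581704-26730117, plus strand), the accessory chain gene shared by several receptors of the family, showed the largest fold difference among the tested members under TMM scaling. Its FPKM was 6.21, 3.22 and 3.76 in Ctrl and 21.0, 15.3 and 16.9 in LIP. In both groups the first library was the highest, and the groups did not overlap. The log2 fold change was 2.33 (SE 0.23, adjusted p = 1.35e-05, edgeR), 5.02-fold with an interval of 3.54 to 7.11, and only 66 tested genes had a higher value. Leaving out single libraries moved it between 2.18 and 2.65. The log2 ratio of Il1r2 to Il1rap had a Ctrl mean of 7.06 ± 0.523 (SD, n = 3) and a LIP mean of 6.33 ± 0.267, with overlap between the groups (exact permutation p = 0.2, 0.24 adjusted). The antisense gene Gm20319 shares 552 exon bases, 4.86% of the Il1rap exons, and had few reads.

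Il18 (ENSMUSG00000039217, chr9:50554827-50581840, plus strand), the cytokine gene, was low and variable. Its FPKM was 3.95, 3.80 and 2.37 in Ctrl and 2.29, 3.56 and 7.23 in LIP, and the ranges overlapped. The log2 fold change was 0.68 with an interval of −0.35 to 1.70 (adjusted p = 0.238, edgeR), which fell to 0.11 without the third LIP library. The genes Tex12 and Bco2 overlap its span without sharing exon bases.

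Il18bp (ENSMUSG00000070427, chr7:102014885-102018197, minus strand), which encodes the soluble binder of IL-18, was separated between the groups. Its FPKM was 1.49, 2.03 and 2.67 in Ctrl and 7.67, 8.31 and 7.43 in LIP. The log2 fold change was 2.22 (SE 0.26, adjusted p = 5.11e-05, edgeR), 4.65-fold with an interval of 3.12 to 6.95, and 89 tested genes had a higher value. Numa1, on the opposite strand, shares 80 exon bases, 2.64% of the Il18bp exons, and had 247% as many counts. Reads in the shared bases are therefore uncertain, while Numa1 itself had a log2 fold change of −0.35 (adjusted p = 0.0892, edgeR). The shared bases come from the exon models of GENCODE M21, whose coordinates for Il18bp differ from the deposited ones. They may not describe the gene model that was counted. The log2 ratio of Il18bp to Il18 was −1.40, −0.90 and 0.17 in Ctrl and 1.73, 1.22 and 0.04 in LIP, where the lowest LIP value lay under the highest Ctrl value (difference 1.71, exact permutation p = 0.2, 0.24 adjusted).

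Il18rap (ENSMUSG00000026068, chr1:40515362-40551705, plus strand), the accessory chain gene of the IL-18 receptor, had 9.74, 7.93 and 9.23 FPKM in Ctrl and 19.8, 20.1 and 21.3 FPKM in LIP. The groups were well apart, with a log2 fold change of 1.5 (SE 0.12, adjusted p = 2.97e-06, edgeR), or 2.82-fold with an interval of 2.35 to 3.38. Its partner Il18r1, which encodes the chain that binds IL-18, was at 1.69 ± 0.253 FPKM (SD, n = 3) in Ctrl and at 1.84 ± 0.849 in LIP, and its log2 fold change of 0.42 did not pass the test (adjusted p = 0.343, edgeR). Without the first LIP library the Il18r1 value was 0.0063 and without the third it was 0.70. The log2 ratio of Il18rap to Il18r1 was 2.61, 2.01 and 2.62 in Ctrl and 2.86, 3.57 and 4.32 in LIP. It did not overlap between groups, with a difference of 1.17 and an exact permutation p of 0.1 (0.2 adjusted).

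**Figure D2:**
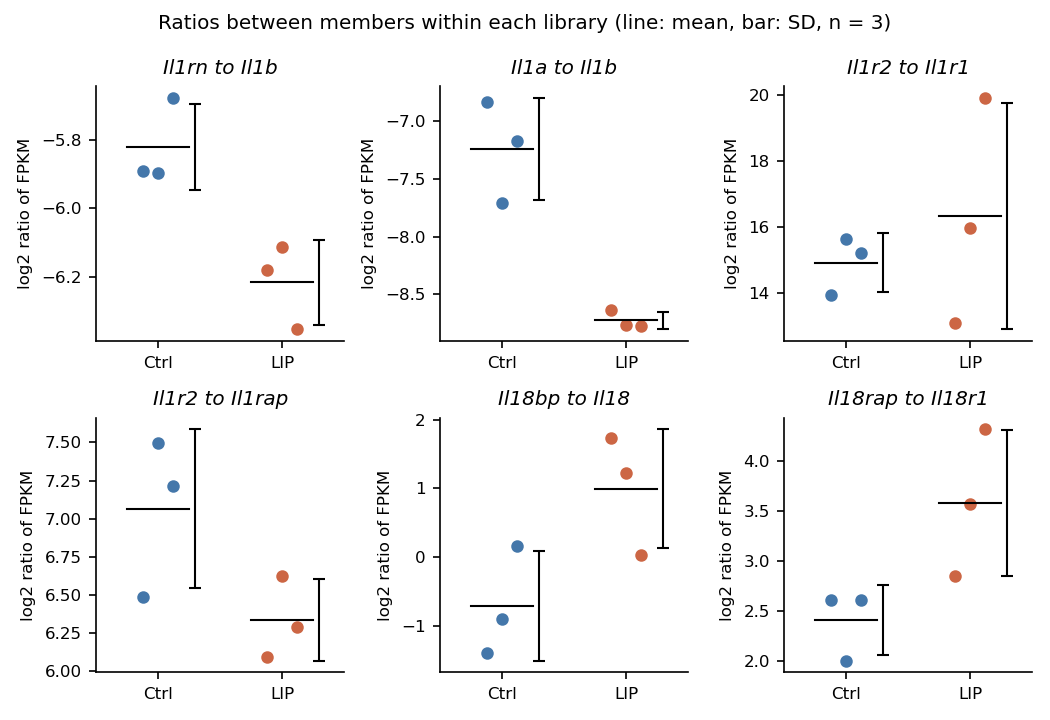
Log2 ratio of FPKM between 2 genes within each library (vertical axes, which do not start at 0) for 6 pairs in Ctrl and LIP, with mean lines and SD bars (n = 3). The ratios Il1rn to Il1b, Il1a to Il1b and Il18rap to Il18r1 do not overlap between groups, whereas those of Il1r2 to Il1r1, Il1r2 to Il1rap and Il18bp to Il18 do.

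In order of mean FPKM the Ctrl libraries had Il1b, Il1r2, Il1rn, Il1a, Il18rap, Il1rap, Il18, Il18bp and Il1r1. The first 3 were separated from each other and from the rest in every library, whereas Il1a and Il18rap overlapped, as did Il1rap with Il18 and Il18 with Il18bp. In LIP the order was Il1b, Il1r2, Il1rn, Il18rap, Il1rap, Il1a, Il18bp, Il18 and Il1r1, in which only Il18rap and Il1rap were neighbours with overlapping values. Il1a, which followed Il1rn in the Ctrl order, stood below Il18rap and Il1rap in all LIP libraries.

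The receptor genes Il1r2, Il1r1, Il1rl2, Il1rl1, Il18r1 and Il18rap lie in this order on the plus strand of chromosome 1. The highest mean FPKM values stood at both ends of this row, and the genes between them were lower. Il1r2, at 566 in Ctrl and 1423 in LIP, was far above Il18rap, at 8.97 and 20.4. Il1rl2, which encodes the IL-36 receptor, had 27, 16 and 110 counts in Ctrl and 0 in each LIP library, and Il1rl1, the gene of the IL-33 receptor, had 188, 60 and 23 counts in Ctrl and 96, 84 and 114 in LIP. Both were below the level required for testing, and without the filter on low values Il1rl2 was called lower (adjusted p = 0.0326, edgeR) and Il1rl1 was not called.

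**Figure D3:**
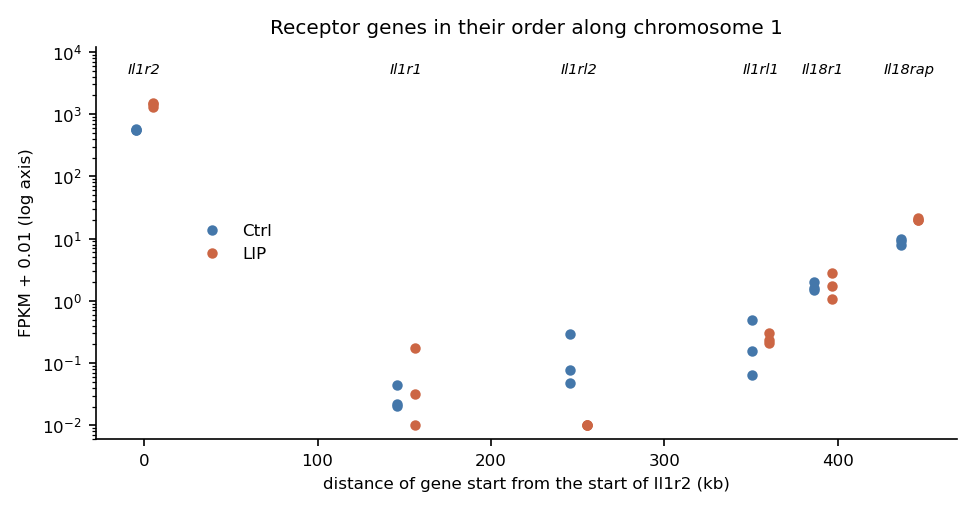
FPKM plus 0.01 (vertical log axis) of the 6 receptor genes by the distance of their annotated starts from that of Il1r2 (horizontal axis, kb), a point for each Ctrl and LIP library. Il1r2 at 0 kb and Il18rap at 441 kb are the highest at either end, with LIP above Ctrl on the FPKM scale, and Il1r1 at 151 kb is among the lowest.

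Of 12 further genes of the family, the 4 in the table were Il18r1, Il1rl1, Il1rl2 and Sigirr, and the others were not analysed here. Sigirr, which encodes an inhibitory receptor of the family, went the other way from the members that rose. It had 6.47, 8.01 and 7.01 FPKM in Ctrl and 2.26, 1.97 and 2.25 FPKM in LIP, without overlap. The log2 fold change was −1.42 (SE 0.23, adjusted p = 4.38e-04, edgeR) with TMM scaling, under which 27.2% of all tested genes fell. With scaling on neutrophil markers Sigirr was also called lower, as were 88.2% of all tested genes.

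Of 28 genes that carry or restrain the signal inside the cell, 24 were tested. With TMM scaling 12 rose and none fell, and those that rose included the restraining genes Nfkbia and Irak3. With library totals 12 rose and 7 fell, and with scaling on neutrophil markers none rose and 23 fell. At a mean FPKM of at least 5, also with TMM, 12 of 20 tested rose and 5 fell, beside 1761 and 1905 of all 5328 genes. Over all tested genes 18.2% rose and 40% fell with library totals, beside the 26.5% and 27.2% with TMM and the 0.556% and 88.2% with neutrophil markers, so the 23 lower genes are near the share of all genes. Their log2 fold changes ran from −0.40 to 1.59 with a median of 0.40. Myd88, the adaptor of the receptor complex, stood at 76.8 ± 1.99 FPKM (SD, n = 3) in Ctrl and at 187 ± 5.81 in LIP and rose by 1.59 on the log2 scale (adjusted p = 3.90e-07, edgeR). Nfkbia, which encodes the NF-κB inhibitor IκBα and is itself an NF-κB target, had 2282 ± 189 and 5331 ± 172 FPKM (1.53, adjusted p = 2.31e-07). Nfkbiz, whose product acts with NF-κB in the nucleus, had 258 ± 21.9 and 573 ± 16.4 FPKM (1.46, adjusted p = 2.58e-07). The 3 smallest differences among the genes called were those of Rela, the NF-κB subunit p65, with 49.5 ± 5.78 and 62.4 ± 3.66 FPKM (0.64, adjusted p = 9.87e-04), of Irak3, the gene of a kinase family member that restrains the pathway, with 13.9 ± 2.04 and 18.9 ± 1.21 FPKM (0.75, adjusted p = 0.00102), and of Tab2, the gene of an adaptor of the kinase TAK1, with 5.47 ± 1.03 and 7.52 ± 0.525 FPKM (0.77, adjusted p = 0.00293). The Tab2 call was lost with limma, at 0.41 and 0.47 by pseudocount.

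Among 18 tested of 22 genes for precursor cleavage and release, 9 rose and 1 fell with TMM scaling, 6 rose and 4 fell with library totals, and none rose and 13 fell with scaling on neutrophil markers, where all tested genes gave the shares named for the signalling genes, 88.2% lower in the last case. The TMM median log2 fold change was 0.58. Nlrp3, the sensor of an inflammasome, stood at 31.1 ± 3.83 FPKM (SD, n = 3) in Ctrl and at 62.4 ± 6.13 in LIP and rose by 1.31 on the log2 scale (adjusted p = 9.12e-06, edgeR). Mefv, which encodes the sensor pyrin, had 8.26 ± 1.74 and 23.1 ± 5.04 FPKM (1.79, adjusted p = 3.49e-05), and Casp4, the gene of the caspase that senses lipopolysaccharide, had 10.3 ± 0.958 and 29.0 ± 1.84 FPKM (1.80, adjusted p = 1.69e-06). Gsdme, the gene of a pore-forming gasdermin, showed the largest log2 fold change of this list, 2.11 (adjusted p = 9.17e-07), from 1.99 ± 0.186 to 6.98 ± 0.499 FPKM.

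The core enzyme of the pathway and its adaptor had small differences. Casp1, the gene of the protease that cleaves both precursors, had 17.7 ± 1.13 FPKM in Ctrl and 20.5 ± 1.81 in LIP, a log2 fold change of 0.52 (adjusted p = 0.00609, edgeR), and Gsdmd, whose pore releases IL-1β, had 22.1 ± 3.04 and 27.8 ± 4.74 FPKM (0.64, adjusted p = 0.00809). Both calls were lost with library totals, at 0.19 and 0.31, and in both limma fits, at 0.20 and 0.21 for Casp1 and 0.31 and 0.32 for Gsdmd. Pycard, the gene of the adaptor ASC, had 8.56 ± 1.37 and 7.79 ± 1.36 FPKM and did not pass the test (0.17, adjusted p = 0.489). Serpinb1a, which encodes an inhibitor of neutrophil serine proteases, fell by 1.27 on the log2 scale (adjusted p = 2.74e-05), with 68.8 ± 7.20 FPKM in Ctrl and 23.0 ± 2.49 in LIP.

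**Figure D4:**
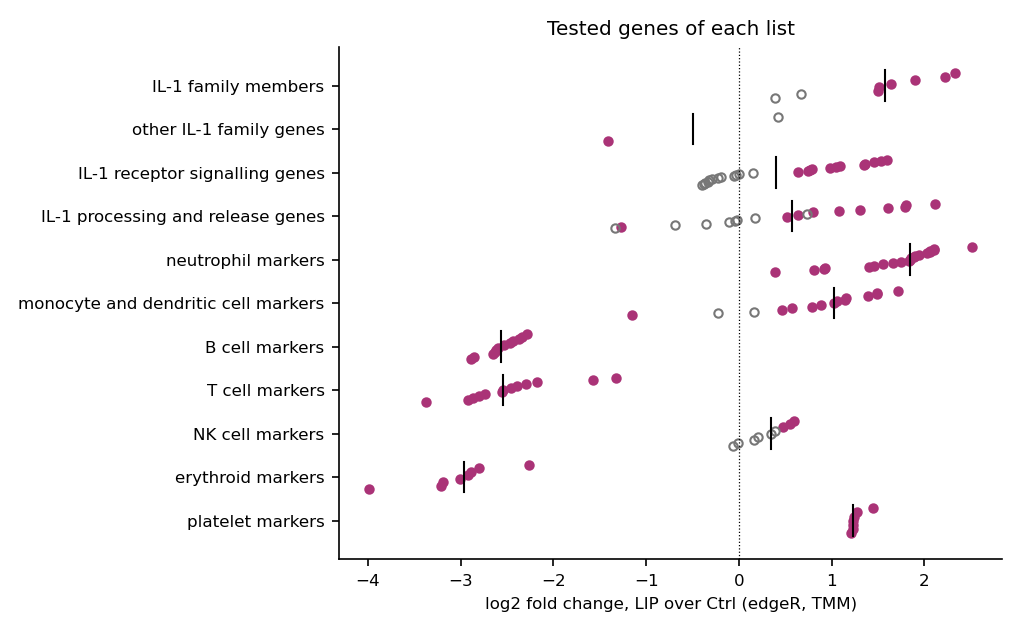
Log2 fold change of LIP over Ctrl with TMM scaling (horizontal axis) for the tested genes of each list (rows), where filled points passed an adjusted p of 0.05, open points did not and the black bar is the list median. The IL-1 family members have a median of 1.57 and neutrophil markers one of 1.84, while B cell, T cell and erythroid markers lie below 0; with scaling on neutrophil markers no member was called higher.

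The neutrophil markers rose by about as much as the members that were called, with a median log2 fold change of 1.84, and the members were therefore also fitted with the libraries scaled on these markers. That scaling moved the median of all tested genes from −0.09 to −1.91. Il1b then had a log2 fold change of 0.09 (adjusted p = 0.217, edgeR), Il1rap 0.50 (adjusted p = 0.0929) and Il18bp 0.41 (adjusted p = 0.168), and none of these passed the test. Il1rn (−0.30), Il1r2 (−0.18), Il18rap (−0.32), Il1a (−1.44) and Il18 (−1.13) were lower. Relative to the median of all tested genes Il1b stood 2.0 higher with either scaling and Il1r2 1.73, since a scaling moves all genes together. With scaling on the geometric mean of the same markers, under which 1.06% of all tested genes rose and 85.6% fell, Il1b (0.23, adjusted p = 0.017) and Il1rap (0.65, adjusted p = 0.0214) were called higher and Il1a (−1.29) was called lower. The 95% interval for Il1rap with scaling on the summed markers ran from −0.08 to 1.08.

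**Figure D5:**
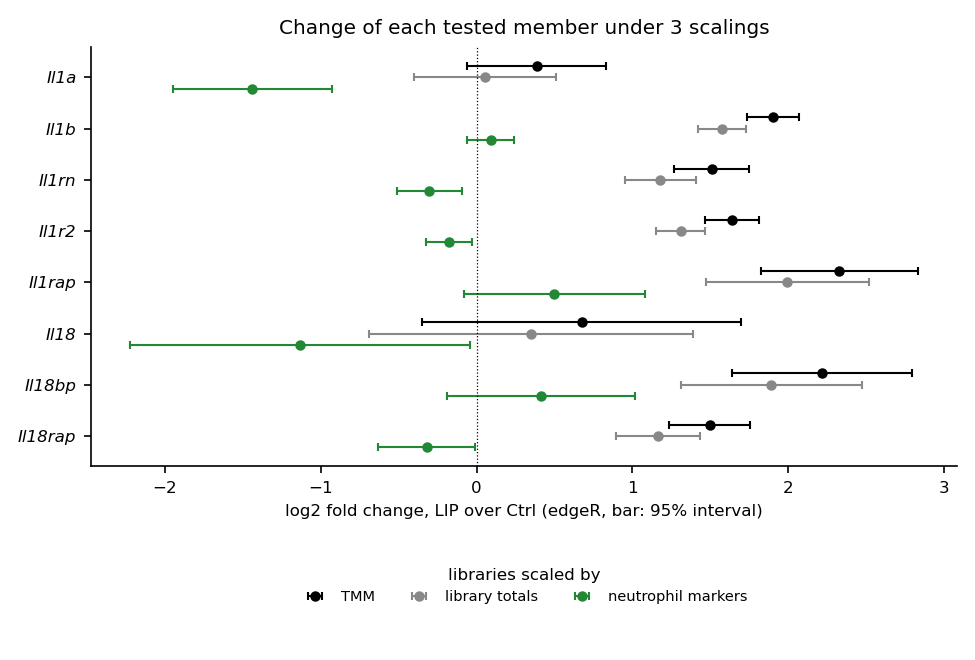
Log2 fold change of LIP over Ctrl (horizontal axis) for the 8 tested members (rows) with libraries scaled by TMM, by library totals or on neutrophil markers (colours), with 95% intervals from edgeR as bars. Il1b is at 1.90, 1.57 and 0.09 under these scalings, and Il1a at 0.38, 0.05 and −1.44.

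For the 3 most abundant members that rose, the tested genes with the most similar profile over the 6 libraries were sought among the 3381 genes that averaged 10 FPKM or more, by the root mean square difference of log2 CPM after each gene was centred. Closest to Il1b were Grina, Slfn1 and Rab32 (0.05, 0.05 and 0.06), closest to Il1rn were Trim30a, Gla and Tyrobp (0.04, 0.06 and 0.06), and closest to Il1r2 were Clec4d, Hcar2 and Gm5150 (0.03, 0.04 and 0.04). Tyrobp encodes the signalling adaptor DAP12 and Clec4d a C-type lectin receptor of myeloid cells. Clec4d is also among the neutrophil markers used for the scaling above. Within 0.2 of the profile there were 175 genes for Il1b, 305 for Il1rn and 288 for Il1r2, so these profiles were shared by many genes. With only 6 libraries in 2 groups, the difference between the groups is part of each profile.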

How the data were processed

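For each gene the authors deposited raw counts and FPKM values, for 6 libraries of paired-end reads. Per the labels, reads were trimmed with cutadapt 1.9, checked with FastQC and processed on GRCm38. The aligner, the counting tool and the use of strand are not given in the sources used here. The deposited FPKM divides by merged exons of all isoforms (within 5% of a constant for 98.6% of 10431 genes). Exon models were those of GENCODE M21, whose coordinates matched the deposited ones for every member but Il18bp. Groups were taken from the labels.

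Counts of genes averaging 1 FPKM or more were fitted with edgeR 4.0.16 (R 4.3.3) by its quasi-likelihood test, with TMM factors and no replicate block, at an adjusted p of 0.05 (Benjamini-Hochberg). The scripts were tested on simulated data. Ratios were tested by two-sided exact permutation. Alternatives were library totals, median-of-ratios factors, DESeq2 1.42.0, limma 3.58.1 on log2(FPKM + 1) and log2(FPKM + 0.1), no filter, a mean FPKM of at least 5, scaling on neutrophil markers, leaving out each library, and, chosen after seeing the data, scaling on the geometric mean of those markers. Columns of the authors' annotation were used only for gene names and positions. The members, gene lists and rules were chosen with earlier results of these data known. The genes named were the members and genes overlapping them, further family genes with 3 or more counts in a library, the 3 highest and 3 lowest log2 fold changes among the called genes of the signalling and the processing list, always Myd88, Irak3, Nlrp3, Pycard, Casp1 and Gsdmd, the most abundant marker of each list, and the 3 profiles closest to each of Il1b, Il1rn and Il1r2. Ly6g was named for the sort. Libraries are pools of different mice, and p-values measure the spread between pools. Replicates differed by far more than sampling noise (chi-square per gene 51.9 to 126). The bound of up to 3 counts given for a 0 covers counting error only, whereas the edgeR intervals include the spread between libraries.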

Additional observations from a re-analysis of the deposited data

How the results depend on the processing

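The 6 calls among the members and the directions of all 8 tested members were kept with DESeq2, median-of-ratios factors, library totals, both limma fits and no filter, and the 6 members still tested at a mean FPKM of at least 5 kept theirs. Leaving out 1 library at a time kept the 6 calls and added Il1a without the first Ctrl library. Across all genes the calls numbered 5601, of which 2766 were higher, beside 6077 (1898 higher) with library totals, 6259 (2010 higher) and 6118 (1974 higher) with limma, 3666 at a mean FPKM of at least 5 from 5328 genes, 9269 with scaling on neutrophil markers and 9043 on their geometric mean. With those last scalings 0 and 2 members were higher (Il1b and Il1rap) and 5 and 1 lower (Il1a). The further family genes called were all lower, 2 of 2 tested with each of these scalings, where 88.2% and 85.6% of all tested genes were lower. Without a filter 2 of 4 were lower (Sigirr and Il1rl2), beside 2184 of all 29097 genes. At the higher minimum 0 were called, since none was tested. Of 24 tested signalling genes, 19 were called with library totals, 12 higher and 7 lower, where 18.2% of all tested genes rose and 40% fell. With the marker scalings 23 and 20 were called, all lower, near the shares of all genes. Each limma fit gave 11 higher and 5 lower. With scaling on the markers and on their geometric mean, these log2 fold changes were below 0: Il1a −1.44 and −1.29, Il1rn −0.30 and −0.17, Il1r2 −0.18 and −0.037, Il18 −1.13 and −1.0, Il18rap −0.32 and −0.18, Casp1 −1.30 and −1.16, Gsdmd −1.17 and −1.04, Il18r1 −1.39 and −1.25, Irak3 −1.07 and −0.93, Rela −1.17 and −1.03, Tab2 −1.05 and −0.91, Myd88 −0.22 and −0.081, Nfkbia −0.28 and −0.14, Nfkbiz −0.36 and −0.21, Nlrp3 −0.50 and −0.36, Pycard −1.64 and −1.50, and with the first alone Casp4 −0.016 and Mefv −0.018. Pycard was also below 0 with library totals (−0.16), limma (−0.12 and −0.14) and the higher minimum (−0.010). The causes of these changes, other than the scaling or the filter itself, were not tested. The ratio of Il1r2 to Il1r1 ran from −0.39 to 3.02 when single libraries were left out. Library numbers do not pair the mice. Correlations of deviations were 0.01 to 0.05 between same-numbered libraries and −0.05 to 0.02 between the others. All libraries but the first Ctrl library correlated best with their own number. With the replicate block 5546 genes and the same number of members, 6, were called. Il1r1 and the genes without reads in a group are limited by depth.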
